A study of Mus musculus with 6 samples.

Results

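Mouse genes whose symbol is Gpr and a number are the remainder of a naming scheme for predicted G protein-coupled receptors, kept where a receptor was not renamed after a ligand. In the mm10 annotation (GENCODE M21) 73 protein-coding genes carry such a symbol, out of 21918 protein-coding genes among the 54532 identifiers measured. Their expression was compared between 3 libraries with PGAM5 knockdown and 3 with DRP1 knockdown. The members were chosen by symbol, and the 14 described in full were selected on a mean of at least 1 FPKM (a level that divides the fragments of a gene by its length and by library depth) over the 6 libraries. Of the others, 28 lay above 0 and below that mean, and 31 were listed at 0 in every library.

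The cells were immortalised mouse bone marrow-derived macrophages (iBMDM), a dividing culture line of marrow macrophages. The shPGAM5 group (PGAM5 knockdown) carried a short hairpin RNA against PGAM5, a phosphatase of mitochondria, and the shDRP1 group (DRP1 knockdown) a hairpin against DRP1, the GTPase that cuts mitochondria in fission. Both groups shared the line and a 24 h exposure to interleukin-4 at 10 ng/ml, a cytokine that drives macrophages towards an anti-inflammatory state. Neither group is an untreated or non-targeting control, so each difference is between the knockdowns, and a gene higher in one is equally lower in the other. The labels do not say whether the libraries of a group come from separate cultures or hairpins, so the p-values cover only the variation among the libraries at hand, part or all of which may be technical.

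G protein-coupled receptors cross the membrane in a bundle of helices and, when a ligand binds, switch on heterotrimeric G proteins inside the cell. The alpha subunit classes then raise or lower cyclic AMP or open calcium stores, while receptor kinases, arrestins and RGS proteins end the signal. Macrophages use such receptors to read extracellular acid, fatty acids, oxysterols and lysophospholipids. Not every gene with a Gpr symbol encodes a receptor of this kind: Gpr89, Gpr107, Gpr108, Gpr137, Gpr137b, Gpr155 and Gpr180 encode multi-span proteins that mostly sit in Golgi or lysosomal membranes.

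The library depths recovered from the FPKM values were 16111281 to 21933547 reads. The reads recovered over all genes summed to more, 17025344 to 23265514. The targeted genes followed the labels, with Pgam5 at 4.60 to 5.21 FPKM in shPGAM5 and 17.1 to 17.3 in shDRP1, and Dnm1l, the gene of DRP1, at 17.2 to 18.7 and 7.12 to 8.18. Of 9 macrophage markers 8 reached 1 FPKM (Mertk did not), and the 9 summed to 3763 to 3934 FPKM in shPGAM5 and 4814 to 4857 in shDRP1. In 9 marker lists of other cell types only Ighm, of the B cell list, reached 1 FPKM, while Ms4a1 was at 0. The summed B cell list was 25.8 to 27.6 FPKM in shPGAM5 and 22.1 to 25.3 in shDRP1, and the other 8 lists summed to 0.60 FPKM or less in every library. A summed list follows its most abundant genes, and the macrophage markers are not given singly here, so the sums do not show whether they differ alike. The part of this difference in the macrophage sum in the results below was not tested. In bulk RNA fewer cells of a type and less RNA per cell cannot be told apart.

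Among the 14 members at or above 1 FPKM, 7 passed the test between the knockdowns: 6 were lower in shPGAM5 (among them Gpr65, Gpr132, Gpr84, Gpr179 and Gpr137b) and 1 was higher (Gpr176). Calls are limma tests on log2(FPKM + 1) at a Benjamini-Hochberg adjusted p below 0.05 over all 10634 genes that reached the same mean. Over those genes 25.4% were called, 11.7% lower and 13.8% higher in shPGAM5, so the members' 50% called and 42.9% lower are given beside that background and not as a test of the list. On chromosome 12, which holds Gpr65 and Gpr132, 42.7% of all tested genes were lower. The median log2 difference, shPGAM5 minus shDRP1, was -0.15 over the 14 members and 0.0094 over all tested genes. For 9 of the 14 members the groups did not overlap, against 43.5% of all tested genes. All 7 calls held under each of 16 alternative settings.

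**Figure D1:**
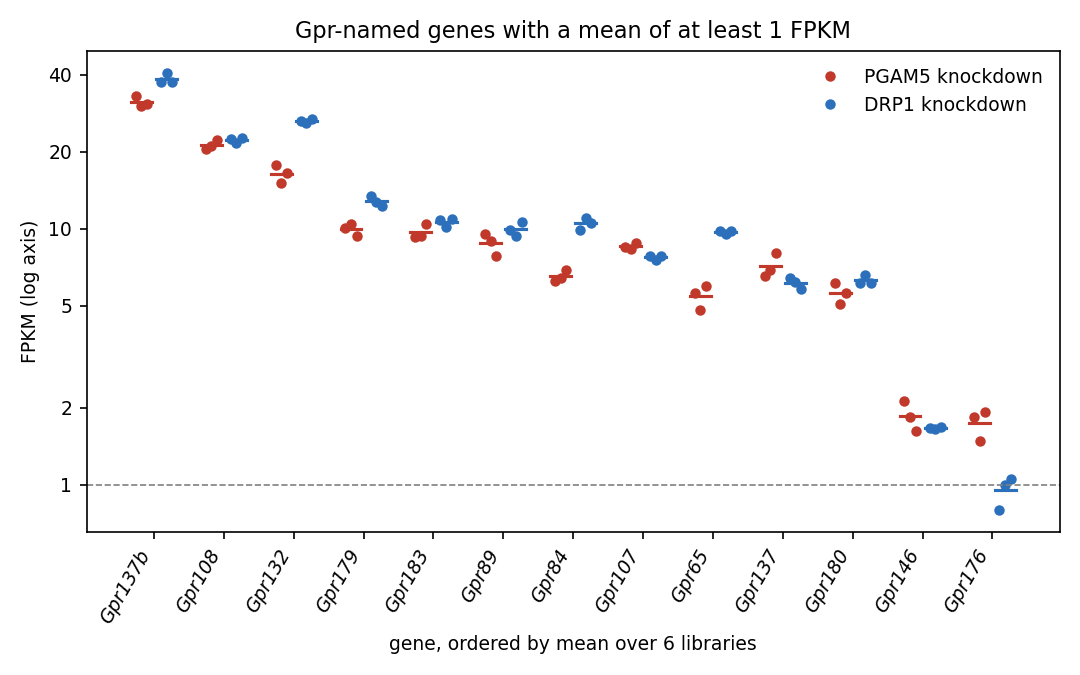
FPKM (log axis) of the Gpr-named genes described here that had a mean of at least 1 FPKM, with 3 libraries per knockdown as points and group means as bars; the dashed line marks 1 FPKM. The blue points of Gpr132, Gpr84 and Gpr65 all lie above the red ones, while Gpr176 shows the opposite order.

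The sequences upstream of 3 called members are printed first, for the proton receptor Gpr65 and the fatty acid receptor Gpr84, both lower in shPGAM5, and for Gpr176, which was higher. They are RefSeq promoter sequences of build GRCm38.p6, the assembly of mm10, read 5′ to 3′ on the gene's strand and ending at the last base before the gene's start in GENCODE M21. Capitals mark the core motif of PU.1, a macrophage transcription factor.
Gpr65 (chr12:98268385-98268634, plus strand): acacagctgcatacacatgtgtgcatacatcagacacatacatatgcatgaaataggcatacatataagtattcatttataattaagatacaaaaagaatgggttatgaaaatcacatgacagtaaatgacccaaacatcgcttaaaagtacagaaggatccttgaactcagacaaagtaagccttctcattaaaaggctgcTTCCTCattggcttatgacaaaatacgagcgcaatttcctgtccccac
Gpr84 (chr15:103310613-103310688, minus strand): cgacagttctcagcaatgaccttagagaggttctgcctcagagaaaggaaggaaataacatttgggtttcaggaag
Gpr176 (chr2:118373420-118373669, minus strand): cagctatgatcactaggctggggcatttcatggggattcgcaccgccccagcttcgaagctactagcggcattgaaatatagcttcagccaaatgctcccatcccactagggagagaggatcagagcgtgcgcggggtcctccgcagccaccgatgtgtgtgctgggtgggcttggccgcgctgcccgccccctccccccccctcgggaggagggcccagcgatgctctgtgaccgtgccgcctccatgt
The full windows, from 250 bases before to 50 after the RefSeq start, were found for 12 of the 14 members; Gpr137b was among those without one. They were searched on both strands for 5 motifs, of which some can share letters: CACGTG (E-box), TGANTCA (AP-1), TGACGT (cyclic AMP response element), GAGGAA (PU.1 core) and the interferon-stimulated response element. Of all 32851 windows of that length (some genes have several), 7.15%, 7.81%, 7.51%, 28.3% and 3.44% held them. In Gpr65 the PU.1 core began at position -48, counted from the start site, on the opposite strand, and the windows of Gpr84 and Gpr176 held none of the 5 motifs. Only 76 bases of the Gpr84 window lie before the gene's start in GENCODE M21, against 250 for Gpr65 and Gpr176. Sequence farther upstream of Gpr84 was not searched. A match describes the letters only.

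Among the proton-sensing receptors, Gpr65 and Gpr132 were lower in shPGAM5, with the largest differences of any member on the log2(FPKM + 1) scale. By the ratio of means Gpr176 exceeded both, and after centring by chromosome the difference of Gpr84 was the largest, at -0.65. These receptors carry histidines that pick up protons when the medium turns acid, and Gpr65 then raises cyclic AMP. Gpr65 (ENSMUSG00000021886, chromosome 12, 98268635 to 98276644, plus strand) measured 5.63, 4.80 and 5.99 FPKM in shPGAM5 libraries 1 to 3 and 9.81, 9.54 and 9.78 in shDRP1 libraries 1 to 3. All 3 shPGAM5 values lay well below the lowest shDRP1 value. The means were 5.47 ± 0.61 and 9.71 ± 0.15 FPKM (SD, n = 3 each), 1.77-fold lower in shPGAM5 (log2 difference -0.73, SE 0.071, limma adjusted p = 0.00049). These values rest on 596 and 1120 reads. An antisense gene listed at 0, Gm47566, covers 24.7% of its exonic bases.

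Gpr132 belongs to the same receptor family and has been linked to oxidised fatty acids and lactate as well as to acid. By its mean over the 6 libraries Gpr132 was the third most abundant member (ENSMUSG00000021298, chromosome 12, 112850873 to 112868228, minus strand), at 17.7, 15.1 and 16.5 FPKM in shPGAM5 and 26.3, 25.9 and 26.9 in shDRP1. The groups were separate, with the wider spread in shPGAM5. Gpr132 was 1.60-fold lower in shPGAM5 (log2 difference -0.65, SE 0.056, limma adjusted p = 0.00029).

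The member of the family best known from blood vessels, Gpr4, was near 0, at 0 to 0.098 FPKM in shPGAM5 and 0.020 to 0.047 in shDRP1.

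Gpr65 and Gpr132 lie on chromosome 12, and the tested genes of that chromosome as a whole were lower in shPGAM5. Of 393 tested genes on chromosome 12, 168 (42.7%) were called lower and 18 (4.58%) higher, with a median log2 difference of -0.15. On the other chromosomes 10.5% were called lower and 14.1% higher, with a median of 0.014. The medians in 20 Mb bins along chromosome 12 ran from -0.24 to -0.12, so the lower values were spread over its length. After removal of each library's median deviation for each chromosome, a setting added after the data were seen, Gpr65 and Gpr132 remained lower, at -0.57 and -0.49 (limma adjusted p = 0.0012 and 0.0011, against 1.8e-05 to 0.0041 and 1.3e-06 to 0.0028 over all 16 alternatives). From the lowest difference upward they ranked 3 and 6 among the 393 genes. Within 1 Mb on either side, 2 of the 6 tested neighbours of Gpr65 and 5 of 24 of Gpr132 were lower, and the neighbours' medians were -0.11 and -0.019. The part of the chromosome-wide difference in these calls was not tested. The centring cannot decide it, since it subtracts a median and the chromosome's genes vary around it (interquartile range -0.27 to -0.032).

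**Figure D2:**
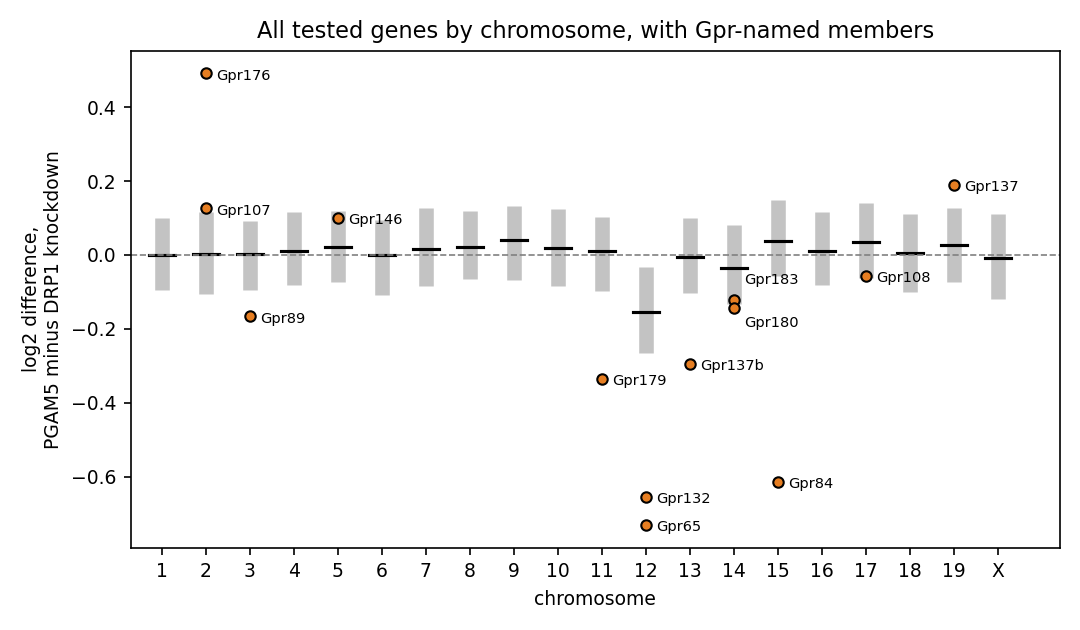
Log2 difference (shPGAM5 minus shDRP1) of all tested genes by chromosome, as median (black line) and interquartile range (grey bar), with the Gpr-named members described here as orange points. Chromosome 12 has a median of -0.15 and Gpr65 and Gpr132 lie below its grey bar; the mitochondrial genome (23 tested genes, median -0.37) is not drawn.

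Receptors for lipids and other metabolites made up 11 members, of which 3 were tested and 1, Gpr84, passed. Over all tested genes 25.4% were called. Gpr84 binds medium-chain fatty acids and is a receptor of inflammatory myeloid cells that couples to the inhibitory G proteins. Gpr84 (ENSMUSG00000063234, chromosome 15, 103308235 to 103310612, minus strand) measured 6.23, 6.43 and 6.87 FPKM in shPGAM5 and 9.93, 11.0 and 10.5 in shDRP1. The highest shPGAM5 value lay below the lowest shDRP1 value, a 1.61-fold lower mean (log2 difference -0.61, SE 0.053, limma adjusted p = 0.0003). Of the 426 other tested genes on chromosome 15, 84 were higher and 36 lower, so the direction of Gpr84 was not that of most called genes there. An antisense gene listed at 0, Gm49482, overlaps 39.5% of the exonic bases of Gpr84, where reads of both genes cannot be told apart without strand.

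Gpr183, or EBI2, guides leukocytes along gradients of oxysterols. It measured 9.26, 9.38 and 10.5 FPKM in shPGAM5 and 10.9, 10.1 and 10.9 in shDRP1. The groups overlapped and the log2 difference of -0.12 (95% interval -0.25 to 0.0075, limma adjusted p = 0.15) did not pass, though it did without shPGAM5 library 3 (-0.17, adjusted p = 0.035; 16 alternatives spanned 0.035 to 0.33). Of 4 enzyme genes that make or break down its oxysterol ligands, Ch25h, Cyp7b1 and Hsd3b7 were listed at 0 in all libraries. Cyp27a1 measured 34.5 ± 1.09 and 35.3 ± 0.65 FPKM and did not pass (limma adjusted p = 0.52).

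Gpr18, a receptor proposed for lipid mediators of resolution, lies beside Gpr183 on chromosome 14, and both sit in introns of Ubac2 on the opposite strand. Gpr18 was the member just outside the level rule, with a mean of 0.94 FPKM over 6 libraries. It measured 0.34, 0.86 and 0.80 FPKM in shPGAM5 and 1.08, 1.17 and 1.37 in shDRP1. shPGAM5 library 1 was the lowest and the groups did not overlap, on 52 and 102 reads. The host gene Ubac2 measured 20.9 ± 0.78 and 21.6 ± 0.72 FPKM and did not pass (limma adjusted p = 0.44).

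Gpr146, a receptor studied for its effect on blood cholesterol, had 2.12, 1.83 and 1.63 FPKM in shPGAM5 and 1.66, 1.65 and 1.67 in shDRP1 and did not pass (limma adjusted p = 0.41). It lies inside 3110082I17Rik on the opposite strand. That gene was 1.23-fold higher in shPGAM5 (limma adjusted p = 0.045), a call lost in 10 of 16 alternatives, among them each that left out shPGAM5 library 2 or 3 or a shDRP1 library (adjusted p of up to 0.12). Gpr35, which responds to kynurenic acid, measured 0.56, 0.33 and 0.25 FPKM in shPGAM5 and 0.24, 0.19 and 0.18 in shDRP1, on 96 and 54 reads. The lysophospholipid receptors Gpr34, Gpr55 and Gpr174 stayed at 0.051 FPKM or below in every library. Of 3 tested genes for enzymes of lysophospholipid ligands, Pla1a, which makes lysophosphatidylserine, was 2.74-fold higher in shPGAM5 (4.65 ± 0.42 and 1.70 ± 0.11 FPKM, log2 difference 1.06, limma adjusted p = 0.00011). Abhd16a was 1.13-fold higher (limma adjusted p = 0.016, up to 0.059 over 16 alternatives), a call lost without shPGAM5 library 2 or shDRP1 library 1 or 2, with the replicate block and with centring by chromosome, and Abhd12 did not pass (28.1 ± 0.19 and 27.7 ± 1.27 FPKM).

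**Figure D3:**
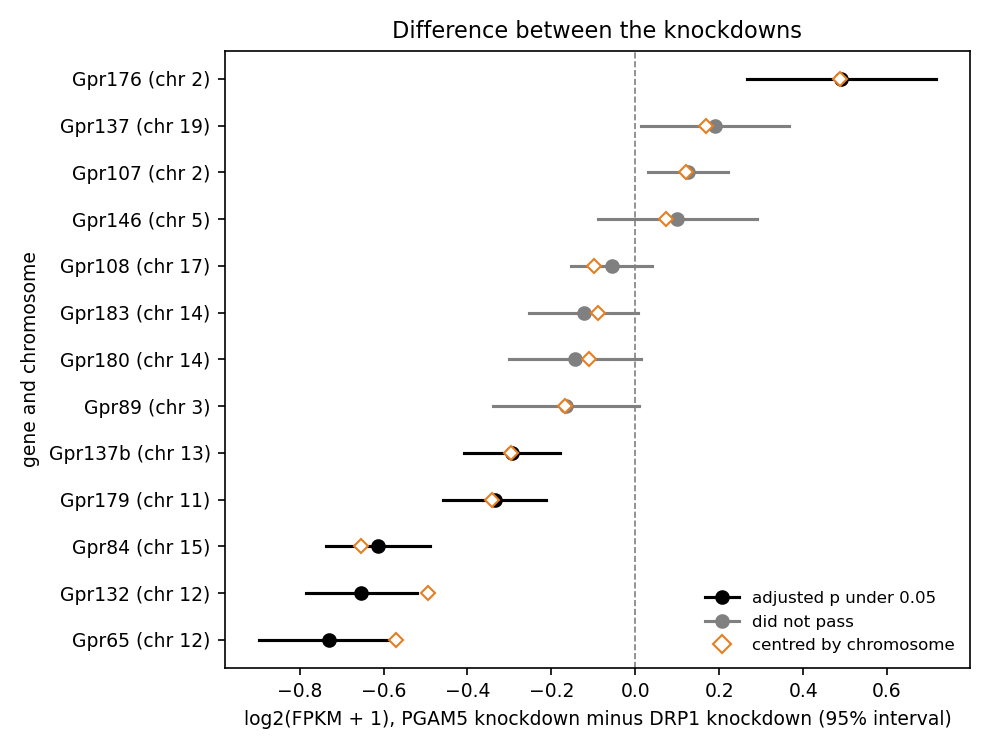
Log2 difference (shPGAM5 minus shDRP1, log2(FPKM + 1)) of the members described here with 95% intervals from limma; black passed the adjusted threshold, grey did not, and open diamonds give the value after centring by chromosome. Centring moves Gpr65 and Gpr132 towards 0. Gpr132 then lies outside its interval (-0.49 against -0.79 to -0.52) and Gpr65 just inside the upper end of its own. Gpr84, Gpr179, Gpr137b and Gpr176 stay within their intervals.

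The proteins of internal membranes held the most abundant member but small differences. Of 8 such genes 6 were tested, 1 was lower, none was higher and 5 did not pass. Over all tested genes 11.7% were lower and 13.8% higher, so these counts are no result about the group. Gpr137b, a lysosomal protein that acts on nutrient signalling, had the highest level of any member (ENSMUSG00000021306, chromosome 13, 13357620 to 13394014, minus strand). It measured 33.1, 30.2 and 30.8 FPKM in shPGAM5 and 37.6, 40.8 and 37.6 in shDRP1. The groups did not overlap, and the mean was 1.23-fold lower in shPGAM5 (log2 difference -0.29, SE 0.049, limma adjusted p = 0.0049). The transcribed pseudogene Gpr137b-ps matched 58.7% of the longest Gpr137b transcript at up to 99.7% identity, so the split of reads between them is uncertain. Gpr137b-ps itself measured 38.2 ± 0.86 and 43.3 ± 0.85 FPKM and was also lower in shPGAM5 (log2 difference -0.18, limma adjusted p = 0.0069).

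Gpr137, a relative of Gpr137b, measured 6.53, 6.93 and 8.05 FPKM in shPGAM5 and 6.44, 6.19 and 5.80 in shDRP1. Its groups did not overlap, yet the difference of 0.19 (95% interval 0.014 to 0.37, limma adjusted p = 0.11) did not pass. The log2 difference was 0.11 without shPGAM5 library 3. Exons of Bad on the opposite strand cover 15.4% of its exonic bases, and Bad did not pass (9.23 ± 0.40 and 8.16 ± 0.66 FPKM, limma adjusted p = 0.10). Gpr155, a lysosomal cholesterol sensor, lay at 0.12 to 0.30 FPKM over the 6 libraries, and Gpr137c at 0.019 to 0.032.

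Gpr107 and Gpr108 are related proteins of the Golgi and trafficking pathway. Gpr107 measured 8.52, 8.31 and 8.76 FPKM in shPGAM5 and 7.83, 7.53 and 7.85 in shDRP1. Its values were separate by group, but the difference of 0.13 (limma adjusted p = 0.060) passed in 1 of 16 alternatives, voom on recovered reads (adjusted p = 0.019; the 16 spanned 0.019 to 0.18). Gpr108, the second most abundant member by its mean over the 6 libraries, overlapped between groups at 21.3 ± 0.94 and 22.2 ± 0.53 FPKM (log2 difference -0.056, 95% interval -0.15 to 0.040). Neither Gpr180, a further relative (5.61 ± 0.53 and 6.29 ± 0.27 FPKM), nor Gpr89, which regulates Golgi acidity (8.77 ± 0.85 and 9.95 ± 0.65 FPKM), passed, with limma adjusted p of 0.16 and 0.15. Exons of Pdzk1 and Gja5, both below 0.1 FPKM, cover 27.9% of those of Gpr89.

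The remaining 40 members have no place in the role groups used here. Of these, 2 were tested and both passed, where 25.4% of all tested genes were called. Gpr179, known from the retina, where it organises a signalling complex at the first visual synapse, was the fourth most abundant member (ENSMUSG00000070337, chromosome 11, 97332109 to 97352077, minus strand). It measured 10.1, 10.5 and 9.34 FPKM in shPGAM5 and 13.4, 12.7 and 12.3 in shDRP1. All shDRP1 values were above all shPGAM5 values, a 1.29-fold lower mean in shPGAM5 (log2 difference -0.33, SE 0.052, limma adjusted p = 0.0040). The level rests on 4971 and 6789 reads. No other annotated gene overlaps its exons and no transcript of another gene matched it at 97% identity over 100 bases.

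Gpr176, an orphan receptor of the brain's circadian clock, was the member just inside the level rule and the only one called higher in shPGAM5 by the main test (ENSMUSG00000040133, chromosome 2, 118277110 to 118373419, minus strand). It measured 1.83, 1.48 and 1.92 FPKM in shPGAM5 and 0.80, 1.00 and 1.05 in shDRP1. The groups were apart, with a 1.84-fold higher mean (log2 difference 0.49, SE 0.096, limma adjusted p = 0.0096). At this level the pseudocount of 1 holds the log2 value down: it was 0.81 with a pseudocount of 0.1 and 0.86 with voom on recovered reads. Its shDRP1 mean of 0.95 FPKM was below 1, so it reached the level rule through the group in which it was high. Its mean over the 6 libraries was 1.35 FPKM.

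Below the level rule, 8 members lay between 0.1 and 1 FPKM and 20 between 0 and 0.1. Gpr19, an orphan receptor, measured 0.83, 0.76 and 1.07 FPKM in shPGAM5 and 0.53, 0.64 and 0.83 in shDRP1. Gpr162 lay at 0.24 to 0.35 and 0.43 to 0.99 FPKM, and Gpr135 at 0.23 to 0.41 and 0.22 to 0.37. When all genes with any reads were fitted, none of the 28 members below the rule passed (limma, with 2 at an unadjusted p below 0.05). Gpr62 had 0 reads in shPGAM5 and 9 in shDRP1. Other leukocyte receptors were at low levels or 0: Gpr141 and Gpr160 lay between 0.0076 and 0.12 FPKM in every library, Gpr82 had reads in 1 library, and Gpr15, Gpr25, Gpr33 and Gpr171 had none. The 31 members listed at 0 were not detectable at this depth, where 3 reads in a library correspond to 0.012 to 0.17 FPKM depending on gene length and library. That limit covers counting error only.

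Of 47 tested genes of G protein signalling downstream of the receptors, 8 were higher, 8 lower and 31 did not pass. Over all tested genes 13.8% were higher and 11.7% lower. The counts stand beside that background without a test of the lists, so they are no result about these genes as a group. Their median log2 difference was -0.0066. Among 8 alpha subunit genes, Gnai2, the most abundant inhibitory subunit, was 1.18-fold higher in shPGAM5 (104 ± 2.45 and 88.5 ± 1.88 FPKM, limma adjusted p = 0.0017). Gnaq, which activates phospholipase C, was 1.23-fold lower (15.7 ± 0.21 and 19.2 ± 0.48 FPKM, limma adjusted p = 0.0014). Of 8 beta and gamma subunit genes 2 were higher and 3 lower. Gng12 was 1.26-fold lower (9.89 ± 0.46 and 12.4 ± 0.60 FPKM, limma adjusted p = 0.0052), while Gnb2, the most abundant, did not pass (106 ± 1.92 and 102 ± 1.23 FPKM). Gng8 was 2.00-fold lower (0.86 ± 0.22 and 1.71 ± 0.34 FPKM, limma adjusted p = 0.021). The Gng8 call was lost without the filter on low values and without shPGAM5 library 2 or shDRP1 library 1 or 2, at adjusted p of up to 0.075 over 16 alternatives, and its shPGAM5 mean was below 1 FPKM.

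Genes that end receptor signals included the largest increase among the 47 genes, that of Rgs11. The RGS proteins speed the shut-off of alpha subunits: of 7 tested, 3 were higher, none was lower and 4 did not pass, where 13.8% of all tested genes were higher and 11.7% lower. Rgs11 measured 2.25 ± 0.20 and 1.10 ± 0.25 FPKM, 2.04-fold higher in shPGAM5 (log2 difference 0.63, limma adjusted p = 0.0047). Rgs1 was 1.33-fold higher (59.2 ± 2.66 and 44.6 ± 0.46 FPKM, limma adjusted p = 0.00042), and Rgs2, the most abundant, did not pass (64.2 ± 3.63 and 69.6 ± 0.22 FPKM, limma adjusted p = 0.085). Rgs2 did pass without shPGAM5 library 3 (0.0037), under quantile normalization (0.014) and with voom (0.042), and its adjusted p spanned 0.0037 to 0.22 across 16 alternatives. The remaining RGS call, Rgs3, was 1.37-fold higher in shPGAM5 (limma adjusted p = 0.027). The Rgs3 call was lost without the filter and with the replicate block. It was also lost when any single shPGAM5 library or shDRP1 library 1 or 3 was left out, at up to 0.085 over 16 alternatives. Among receptor kinases and arrestins, Grk6 was 1.33-fold higher (8.56 ± 0.47 and 6.43 ± 0.30 FPKM) and Arrb2 1.13-fold higher (50.6 ± 0.96 and 44.7 ± 0.20 FPKM), at limma adjusted p of 0.0032 and 0.0041. Grk5 was 1.52-fold lower (1.56 ± 0.27 and 2.38 ± 0.22 FPKM, limma adjusted p = 0.021), a call lost without the filter and without shPGAM5 library 2 or shDRP1 library 1 or 3, at up to 0.074 over 16 alternatives.

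Of 13 tested genes for cyclic AMP enzymes and kinases, 2 were lower and 11 did not pass. Over all tested genes 11.7% were lower and 13.8% higher. Pde8a, which breaks down cyclic AMP, was 1.38-fold lower (6.48 ± 0.61 and 8.94 ± 0.18 FPKM, limma adjusted p = 0.0038). Adcy9, a cyclase, was 1.48-fold lower (1.23 ± 0.17 and 1.83 ± 0.076 FPKM, limma adjusted p = 0.020). That call was lost without the filter, with the replicate block and without shDRP1 library 2 or 3, at up to 0.073 over 16 alternatives. Prkar1a, the most abundant of the list, did not pass (62.8 ± 0.68 and 64.2 ± 0.81 FPKM). Plcb2 was the one called gene of 6 phospholipase C beta and exchange factor genes, 1.24-fold lower (9.30 ± 0.65 and 11.6 ± 0.31 FPKM, limma adjusted p = 0.0081), and Arhgef1, the most abundant there, did not pass (32.7 ± 1.08 and 33.4 ± 0.32 FPKM).

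**Figure D4:**
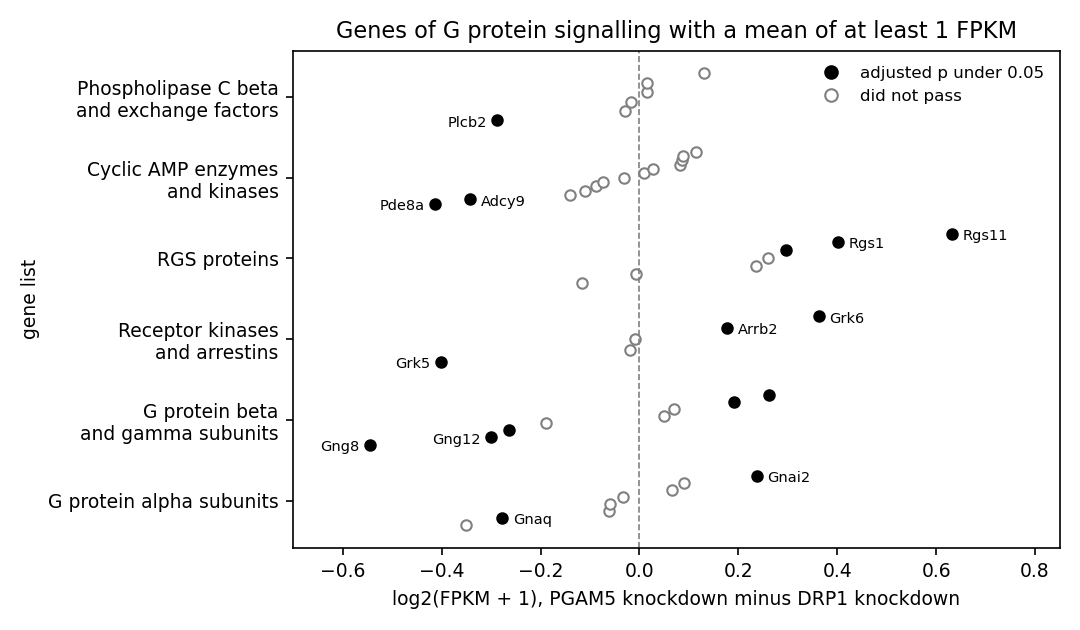
Log2 difference (shPGAM5 minus shDRP1) of the 47 tested G protein signalling genes in 6 lists; filled points passed the adjusted threshold and open points did not. Filled points lie on both sides of 0, with Rgs11 farthest right at 0.63 and Gng8 farthest left at -0.55.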

How the data were processed

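RNA was poly-A selected, fragmented and copied from random primers, per the labels' protocols, and no strand setting is stated. The authors deposited 1 FPKM value per gene and library. Reads were aligned with HISAT2 2.0.5 and counted with featureCounts 1.5.0-p3 on mm10, per the submitters' processing notes. The annotation release and FPKM formula were not given in the sources used here. Identifiers were matched to GENCODE M21 (54409 of 54532). FPKM times exonic length times 1 depth per library was within 0.02 of a whole number for 96.1% of values above 0, which gave the reads and depths quoted (for Gpr137 and Gpr151 the length did not give whole reads).

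Groups followed the sample titles. Genes with a mean of at least 1 FPKM entered limma 3.58.1 (R 4.3.3) as log2(FPKM + 1) (trended empirical Bayes, two-sided, Benjamini-Hochberg over 10634 genes). An exact permutation of 3 against 3 cannot go below p = 0.1. Folds are ratios of mean FPKM. The steps were run on simulated reads with known folds and a fixed spread. That setting is simpler than these data and does not gauge the calls. Near-identical transcripts were searched with blastn 2.17.0. Libraries differed beyond sampling noise in every pair within groups (chi-square of 2.66 to 8.21 per gene), and shPGAM5 library 3 stood farthest from its group.

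The members and lists were chosen with earlier results of these data known. Named are members at or above 1 FPKM (1 is not reported here), the next 5, the targets, overlapping or host genes with a level, tested ligand enzymes, and per signalling list up to 2 called genes with the largest differences and the most abundant gene. Other members are named as examples, and Rgs3 as the remaining RGS call. The alternatives were pseudocounts of 0.1 and 0.5, no filter or 0.5 FPKM, quantile and median scaling, no trend, the replicate block, voom, leaving out each library and, added later, centring by chromosome.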

Additional observations from a re-analysis of the deposited data

How the results depend on the processing

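The counts of Gpr-named members were stable: 6 were lower in every alternative but 1 (7 without shPGAM5 library 3, where Gpr183 passed), and 1 was higher in every alternative but voom on recovered reads (2, where Gpr107 passed). The 7 members called were called again in each alternative. Leaving out 1 library gave 1798 to 2738 genes called in all, against 2704, with the lowest count without shDRP1 library 2 (1798). Called G protein signalling genes then ranged from 7 to 8 higher and 6 to 9 lower. Same-numbered libraries of the knockdowns did not deviate together (correlations of 0.021, 0.031 and -0.00034), so the numbers were not taken as pairs. With the replicate block 2133 genes, 1 higher and 6 lower members and 8 higher and 8 lower signalling genes were called. Scaling moved the median of all tested genes by less than 0.1.

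Differences that changed sign had not passed: Gnb2 (-0.0081) and Abhd12 (-0.015) under quantile normalization, and Abhd12 over the libraries left out (-0.020 to 0.036). The cause was not tested. Counts of few reads limit Gpr18 and every member below it.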

Other observations

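Outside the protein-coding rule, 2 further genes have a Gpr symbol and no reads in any library: Gpr141b, annotated as a lincRNA, and Gpr31a, a processed pseudogene. The transcribed pseudogene Gpr137b-ps had a higher level than any protein-coding member, at 37.2 to 38.8 FPKM in the shPGAM5 libraries and 42.6 to 44.2 in the shDRP1 libraries. The 73 members summed to 135 to 142 FPKM in shPGAM5 and 169 to 170.3 in shDRP1, and the 14 above the level rule made up nearly all of it (131 to 138 and 165 to 166). Such a sum follows its most abundant members, of which Gpr137b and Gpr132 were called lower in shPGAM5 and Gpr108 did not pass.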
